A study of Homo sapiens with 8 samples.

Results

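CEBPB binding sites that lie close together in the genome were examined as separate reporter elements. A site was counted as clustered when its position was within 10000 bases of another bound site of the reporter library on the same chromosome. Bound sites outside the library did not enter, so a site not counted as clustered may still have bound neighbours. This rule used positions only, and it took 154 of the 1730 bound sites in the reporter library, which held 3095 elements in all. The clustered sites formed 70 clusters, of which 59 held 2 sites, 9 held 3, 1 held 4 and 1 held 5. The other 1576 bound sites served for comparison, and 1365 scrambled sequences gave the background of the assay.

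The study transfected barcoded luciferase reporter plasmids into HepG2, a human hepatocellular carcinoma line, and K562, a human leukaemia line. Its title asks whether RNA polymerase II away from promoters separates active from inactive CEBPB sites. Each line was transfected 2 times independently with FuGENE reagent, and barcodes were counted in DNA and in RNA of each transfection, which gave 8 libraries of 9965393 to 10193122 reads. The DNA recovered from the transfected cells was the input of each measurement, and the same plasmids entered both lines. The labels name no further treatment and do not describe the promoter of the reporter.

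CEBPB is a basic leucine zipper transcription factor that binds DNA as a dimer and is known in liver for its part in the acute phase response and in metabolism. Binding sites of such factors often lie in groups around active genes, and a factor can occupy a site without that site driving transcription. RNA polymerase II at a site away from promoters is a known mark of active enhancers. A plasmid reporter takes each site out of its neighbourhood, so that neighbours in the genome are measured apart from each other.

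Every element was read through up to 4 barcodes, 9-base tags in the reporter transcript. The barcode sequences of 3 sets are shown because the results below turn on how far the barcodes of an element agree. All letters are capitals because the whole run is the barcode, and the sequences of the elements themselves were not used here. The first set belongs to chr16:87887297, the most active clustered site in HepG2, and its neighbour chr16:87881964.
chr16:87887297 barcode 1: ATACGCATG
chr16:87887297 barcode 2: CATGTGTGA
chr16:87887297 barcode 3: GCGCTCACT
chr16:87887297 barcode 4: TTCGCAGAA
chr16:87881964 barcode 1: ATTGATGGT
chr16:87881964 barcode 2: TATGATGTA
chr16:87881964 barcode 3: TGCCGCAGA
chr16:87881964 barcode 4: TTCGAGATG

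In this order the barcodes of chr16:87887297 gave log2 RNA/DNA of 4.40, 3.93, 3.42 and 4.32 in HepG2, and those of chr16:87881964 gave 0.19, -0.15, 0.19 and 0.54. The log2 RNA/DNA is the barcode's RNA reads over its DNA reads, scaled so that 0 is the typical scrambled sequence. All 4 barcodes of the first site lay above all 4 of its neighbour.

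The second set belongs to chr1:235012237 and chr1:235011443, 794 bases apart, which differed in K562.
chr1:235012237 barcode 1: AGTAGGACG
chr1:235012237 barcode 2: CGAGCATAC
chr1:235012237 barcode 3: CTGCTCGAC
chr1:235012237 barcode 4: TACCGCACC
chr1:235011443 barcode 1: CGTTGTACT
chr1:235011443 barcode 2: CTTAGCAGA
chr1:235011443 barcode 3: TAAGTGTAC
chr1:235011443 barcode 4: TGACAGCAC

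In K562 the barcodes of chr1:235012237 gave 1.89, 1.73, 1.70 and 1.60, and in HepG2 the same barcodes gave -0.15, -0.30, -0.16 and -0.49. Those of chr1:235011443 gave 0.46, -0.27, 0.42 and -0.95 in K562. The barcodes of the active site were close to each other in either line, while those of its neighbour scattered around 0.

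The third set, of chr7:156408363, shows a value carried by a single barcode.
chr7:156408363 barcode 1: AAGATGTAG
chr7:156408363 barcode 2: ACGCGTACG
chr7:156408363 barcode 3: CGTCAAGGT
chr7:156408363 barcode 4: TTCGAAGCA

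In HepG2 these barcodes gave 0.39, 3.27, 0.39 and 0.10. The high barcode, ACGCGTACG, also held the most DNA reads, 271 and 321 in the HepG2 DNA libraries, against 35 and 28 for TTCGAAGCA. A sum over barcodes therefore gave this site a high value that the other barcodes did not share.

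Clustered sites were mostly of the classes with RNA polymerase II. Neighbours were counted within the library only, so the shares below also depend on which sites of each class the library held. The table names 6 classes, HepG2, K562 or Shared combined with Pol2 or NOPol2. The table leaves them undefined, and from the series title they were taken to be the line in which CEBPB bound and sites with or without the polymerase. Sites with the polymerase made up 83.1% of clustered sites (128 of 154) and 48.1% of the others. HepG2_Pol2 sites were 51.9% of clustered sites and 22.3% of the others, and Shared_Pol2 sites were 16.9% and 9.45%. K562_Pol2 sites ran the other way, with 14.3% of clustered sites and 16.4% of the others. In contrast, sites without the polymerase were rarely clustered, with 3.17% of HepG2_NOPol2, 2.97% of K562_NOPol2 and 3.03% of Shared_NOPol2 sites, against 18.6% of HepG2_Pol2, 14.9% of Shared_Pol2 and 7.86% of K562_Pol2 sites.

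Classes were often mixed within a cluster. Of the 70 clusters, 41 held more than 1 class and 29 held a single class, which was HepG2_Pol2 in 22. The line of binding was mixed in 30 clusters and the polymerase in 18, with both mixed in 7. All sites carried the polymerase in 48 clusters, and none did in 4. Clusters spanned a median of 3409.5 bases, from 214 to 13987, and the median distance to the nearest neighbour was 2469 bases. Chromosome 6 held 27 clustered sites, more than any other chromosome, followed by chromosome 2 with 17 and chromosome 20 with 14.

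Not every clustered site could be tested. An element was tested when at least 3 of its barcodes had 10 reads or more in every DNA library, and 133 of the 154 clustered sites passed, 113 of them with 4 barcodes and 20 with 3. Among the 21 that did not pass, 9 had 2 such barcodes, 11 had 1 and 1 had none. The filter used DNA reads alone. Tested clustered sites had a median of 3488 DNA reads per library, against 3163 for the other sites. At least 2 sites were tested in 53 clusters, which held 118 of the tested sites, 1 site in 15 clusters and no site in 2.

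In HepG2, 31 of the 133 tested clustered sites were active, 23.3% (95% exact Clopper-Pearson interval 16.4 to 31.4). Active means an adjusted p under 0.05 in edgeR's quasi-likelihood test of RNA against DNA and a log2 RNA/DNA above the 95th percentile of scrambled sequences, which was 0.66 in HepG2. The rule called 14.0% of all 2332 tested elements and 21.7% of tested bound sites. Among the other bound sites 248 of 1153 were active, 21.5% (19.2 to 24.0), so the clustered share lay within the interval of the others and near the background. The median log2 RNA/DNA was 0.08 for clustered and 0.14 for the other sites, and 11 clustered sites exceeded a log2 RNA/DNA of 2. These intervals treat sites as independent, which neighbours need not be, and cover counting error only.

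Within HepG2_Pol2, the largest class of clustered sites, the share was lower than among unclustered sites of the same class. In HepG2, 13 of 71 clustered HepG2_Pol2 sites were active, 18.3% (10.1 to 29.3), against 104 of 306 others, 34.0% (28.7 to 39.6), and the medians were 0.07 and 0.29. In Shared_Pol2 the counts ran the other way, with 12 of 25 clustered sites active, 48.0% (27.8 to 68.7), against 43 of 125, 34.4% (26.1 to 43.4). The intervals overlapped in both classes, in HepG2_Pol2 only at their ends (28.7 and 29.3). K562_Pol2 gave 4 of 20 against 23 of 164. Of the clustered sites without the polymerase, 1 of 10 HepG2_NOPol2, 1 of 4 K562_NOPol2 and 0 of 3 Shared_NOPol2 sites were active, numbers too small to set against the others. Class differences were not tested. The p-values behind each call measure the spread between replicate libraries, estimated over all 8 libraries of both lines together.

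The strongest clustered site in HepG2 was chr16:87887297, a Shared_Pol2 site. Its log2 RNA/DNA was 3.86 and 4.05 in the HepG2 transfections, a mean of 3.95 ± 0.14 (SD, n = 2) or 15.5-fold over scrambled sequences (edgeR adjusted p = 4e-09). Values with ± below are means and SDs over the 2 transfections of a line. Its own scrambled version stood at 0.37. It was followed by chr20:343211, also Shared_Pol2, at 3.62 and 3.81 (adjusted p = 6.39e-09, edgeR), and by chr3:5036755, a K562_Pol2 site, at 3.45 and 3.44 (adjusted p = 3.7e-10, edgeR). The third thus drove strong transcription in the line in which its class does not place CEBPB. The HepG2_Pol2 site chr20:49016820 gave 3.20 and 3.19, and Shared_Pol2 site chr16:85558606 gave 2.86 and 2.85. In each of these 5 sites the lowest barcode stayed above 2.

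Further down, chr6:1231373 (HepG2_Pol2) had 2.31 ± 0.14, chr14:62019762 (Shared_Pol2) 2.27 ± 0.01 and chr10:74080695 (Shared_Pol2) 2.16 ± 0.08. The remaining members of the 10 most active sites were chr7:156408363, at 2.57 ± 0.30, and chr6:159261618 (K562_NOPol2), at 2.16 ± 0.04. Both rested on a single barcode. Without the barcode of highest RNA/DNA in each element, chr7:156408363 stood at 0.57 (adjusted p = 0.338, edgeR) and chr6:159261618 at 0.59 (adjusted p = 0.583, edgeR). Of the 31 active sites, 27 kept their call in that setting. The active sites outside the 10 strongest lay between 0.66 and 2.03. The lone active HepG2_NOPol2 site, chr22:37429000, was near the threshold at 0.67 ± 0.28, and the lone active K562_NOPol2 site was chr6:159261618.

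In HepG2, 3 clustered sites were repressed, that is below the 5th percentile of scrambled sequences at -0.45 with an adjusted p under 0.05 (edgeR). This rule called 2.44% of all tested elements and 1.87% of bound sites. The 3 were chr7:154468266 (-0.57 ± 0.25), chr13:114445111 (-0.55 ± 0.04) and chr14:35816941 (-0.46 ± 0.13), all close to the threshold. Leaving out HepG2 transfection 1 ended all 3 calls (adjusted p of 0.121, 0.0964 and 0.121, edgeR). The scrambled version of chr7:154468266 was itself active in HepG2, at 0.95.

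Fewer clustered sites were active in K562, with a median log2 RNA/DNA of 0.95 over the active ones against 1.61 in HepG2. There 19 of 133 were active, 14.3% (8.83 to 21.4), where the rule called 8.15% of all tested elements and 12.8% of bound sites, with the 95th percentile of scrambled sequences at 0.52. The other bound sites gave 145 of 1153, 12.6%, within that interval. Medians were 0.02 and 0.08, and chr14:62019762 was the only clustered site above a log2 RNA/DNA of 2. All 19 active sites kept their call without the highest barcode.

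Shared_Pol2 sites supplied 11 of those 19 in K562, out of 25 tested, or 44.0% (24.4 to 65.1), against 30.4% (22.5 to 39.3) of 125 unclustered Shared_Pol2 sites. HepG2_Pol2 sites supplied 4 of 71, K562_Pol2 sites 3 of 20 and HepG2_NOPol2 sites 1 of 10. Among the unclustered sites of these classes 8.17%, 23.2% and 7.64% were active. No clustered K562_NOPol2 or Shared_NOPol2 site was active in K562, out of 4 and 3 tested by edgeR's quasi-likelihood test.

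The K562 list was led by chr14:62019762, with log2 RNA/DNA of 2.16 and 2.12 in the K562 transfections (adjusted p = 2.96e-07, edgeR). The site thus gave nearly the same level in both lines, 2.14 ± 0.03 in K562 and 2.27 ± 0.01 in HepG2. Next came chr1:235012237 at 1.80 and 1.65 (adjusted p = 3.05e-06, edgeR), which had -0.20 and -0.34 in HepG2. Then followed chr16:87887297 (1.63 ± 0.16), chr16:30787323 (1.54 ± 0.00), chr3:5036755 (1.47 ± 0.03) and chr6:3410120 (1.46 ± 0.07). All of these are Shared_Pol2 sites except chr3:5036755. The last of the 10 strongest were chr1:230844463 (1.22 ± 0.03), chr20:343211 (1.13 ± 0.12), chr1:32421675 (0.98 ± 0.35) and chr20:30294640 (0.95 ± 0.03).

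The only active clustered site without the polymerase in K562, chr2:8819195, had 0.55 ± 0.07, just above the percentile of 0.52. Its own scrambled version was also active there and higher, at 1.94. K562 had 3 repressed clustered sites, where the rule called 1.24% of all tested elements and 1.24% of bound sites. They were chr2:38875336 (-1.55 ± 0.68), chr9:131067083 (-0.67 ± 0.00) and chr6:167722251 (-0.56 ± 0.04). The transfections of chr2:38875336 were far apart, at -1.07 and -2.03. Lower still were chr9:90408377 (-2.40 ± 2.07) and chr20:56119942 (-2.30 ± 3.30), whose transfections were farther apart and which did not pass (adjusted p of 0.346 and 0.734, edgeR). None of the 3 calls held without the highest barcode (adjusted p of 0.0589, 0.173 and 0.0751, edgeR).

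Between the lines, 40 of 133 clustered sites differed in log2 RNA/DNA, 31 of them higher in HepG2 and 9 higher in K562 (edgeR, adjusted p under 0.05). The test called 16.7% of all tested elements and 24.4% of bound sites, of which 12.8% and 19.1% were higher in HepG2 and 3.95% and 5.29% higher in K562. The clustered share was 30.1%, against 23.8% of the other bound sites. Among sites with the polymerase the shares were nearly equal, 31.0% (36 of 116) against 30.8% (183 of 595). Sites without it gave 23.5% (4 of 17) against 16.3% (91 of 558). By class the order was not the same, with 22.5% against 32.4% in HepG2_Pol2 and 64.0% against 37.6% in Shared_Pol2. Without the highest barcode of each element, chosen in each line separately, 23 clustered sites differed. The share over all elements in that setting is not given here. In all, 13 sites were active in both lines, 18 in HepG2 alone, 6 in K562 alone and 96 in neither, and these groups follow from the calls and not from a test of the difference.

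The differences toward HepG2 were led by chr6:159261618 (2.88), chr20:49016820 (2.87), chr6:1231373 (2.81), chr7:156408363 (2.72) and chr20:343211 (2.60), as differences of log2 RNA/DNA in edgeR. At chr6:159261618 and chr7:156408363 the HepG2 value rested on a single barcode. Without the highest barcode, chosen in each line separately, the differences fell to 1.48 and 0.70 (adjusted p of 0.355 and 0.515, edgeR). At chr20:49016820 the K562 values were 0.22 and 0.44, and at chr6:1231373 they were -0.37 and -0.67, so both sites were near or below scrambled sequences in K562. The differences toward K562 were -1.99 at chr1:235012237, -1.80 at chr6:3410120, -1.12 at chr1:32421675, -1.07 at chr20:30294640 and -0.69 at chr2:8819195. Of these 5, 3 are Shared_Pol2 sites and none was active in HepG2. At chr6:3410120, for example, the HepG2 values were -0.53 and -0.16 and the K562 values 1.41 and 1.51.

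Where a cluster had an active site, it mostly had 1. Among the 53 clusters with at least 2 tested sites, HepG2 gave 29 with no active site, 19 with 1 and 5 with more. In K562, 38 had none, 12 had 1 and 3 had more. Sites were then paired with the next tested bound site on the chromosome, which gave 65 pairs within 10000 bases and 1198 pairs farther apart. In HepG2 both sites were active in 5 of the 65 close pairs (7.69%), a single site in 20 (30.8%) and neither in 40 (61.5%). The far pairs gave 5.09%, 33.0% and 61.9%. The K562 counts were 3 (4.62%), 13 and 49 (75.4%), against 1.59%, 22.0% and 76.5%. Pairs within clusters of 3 or more share sites.

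Neighbours often differed in HepG2. With limma on the difference between neighbours in each transfection, 24 of the 65 close pairs differed (36.9%) at an adjusted p under 0.05, where 47.5% of all 1263 pairs were called. In 16 of the 24 the barcode ranges of both sites were also apart. The median absolute difference of log2 RNA/DNA was 0.40 for close and 0.53 for far pairs. Leaving out HepG2 transfection 1 gave 15 pairs (23.1%, against 24.5% of all pairs) and leaving out transfection 2 gave 19 (29.2%, against 25.3%), so the order of close and all pairs turned without transfection 2. The test does not cover the spread between barcodes.

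In K562 only 3 close pairs differed (4.62%), where 8.16% of all pairs were called, and barcode ranges were apart in all 3. Median absolute differences were 0.33 for close and 0.37 for far pairs. With the replicate number as a block, limma called 0 of the 65 close pairs and 0% of all pairs, so that the 0 says nothing particular about close pairs. At an unadjusted p under 0.05 (limma) there were 15 of the 65 close pairs with and 15 without the block. Over all 1263 pairs there were 343 without the block. With the block, the adjusted p-values of the 3 pairs were between 0.0559 and 0.0794 (limma). Leaving out HepG2 transfection 1 or 2, which enter the same fit, also gave 0 close pairs and 0% of all pairs, with 16 close pairs at an unadjusted p under 0.05 each time.

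Across pairs, the log2 RNA/DNA of a site and its neighbour were weakly related. Over the 65 close pairs Pearson's r was 0.19 (Spearman's rho 0.18) in HepG2 and 0.22 (0.20) in K562, against 0.02 (-0.02) and -0.01 (-0.03) over the 1198 far pairs. Both sites of a pair were measured in the same libraries, and the values are given as a description.

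In HepG2 the median difference between neighbours was smallest at the shortest distances. Under 1000 bases (22 pairs) the median absolute difference was 0.25 and 5 pairs differed. From 1000 to 5000 bases (25 pairs) it was 0.37, with 9 differing, and over 5000 and up to 10000 bases (18 pairs) it was 0.86, with 10 differing (limma, adjusted p under 0.05). Pairs over 10000 and up to 100000 bases apart (144) had 0.75 and 93 differing, and those over 1000000 bases apart had 0.48. The last range was thus lower than that just beyond the cluster limit. The share of pairs with neither site active in HepG2 was 77.3%, 60.0% and 44.4% over the 3 close ranges, and its part in the smaller differences was not tested. In K562 the medians over the close ranges were 0.24, 0.33 and 0.65, and 0.38 in the range up to 100000 bases. The table gives no element length, so whether the closest sites share sequence was not determined. The trend over distance was not tested.

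The difference between neighbours depended on the line in 16 of the 65 close pairs (limma, adjusted p under 0.05 for the difference between lines), where 20.6% of all pairs were called. The largest neighbour difference in HepG2 lay between chr16:87881964 (HepG2_Pol2, 0.24 and 0.19) and chr16:87887297 (Shared_Pol2, 3.86 and 4.05), 5333 bases apart. On the log2 scale the second site exceeded the first by 3.74 (SE 0.14, limma adjusted p = 8.74e-05). In K562 it was higher by 1.29 (SE 0.21, limma adjusted p = 0.0312), and the difference between lines was 2.44 (adjusted p = 0.00513). At 1278 bases, chr20:49015542 (0.20 and -0.07) and chr20:49016820 (3.20 and 3.19) differed by 3.14 in HepG2 (limma adjusted p = 0.000107), while K562 gave 0.34 (limma adjusted p = 0.368). Both are HepG2_Pol2 sites, so the contrast arose within a class. The third site of that cluster, chr20:49006838 (HepG2_NOPol2), had 0.26 ± 0.23, while its scrambled version was active at 1.67.

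Also between sites of a single class, chr6:1228826 (0.05 and -0.32) and chr6:1231373 (2.21 and 2.40), both HepG2_Pol2 and 2547 bases apart, differed by 2.44 in HepG2 (limma adjusted p = 0.000352). The pairs chr10:74079460 and chr10:74080695 (2.07, adjusted p = 0.000214) and chr1:230844463 and chr1:230851419 (-1.75, adjusted p = 0.000899) likewise had barcode ranges apart. In both, the Shared_Pol2 site was the higher one. The barcode ranges overlapped in 3 of the 10 largest differences. These were chr7:156407411 and chr7:156408363 (2.66), chr9:131058634 and chr9:131067083 (-2.09) and chr6:159256770 and chr6:159261618 (1.94). In each the higher site had a single high barcode, and without the highest barcodes the pair on chromosome 7 differed by 0.80 (limma adjusted p = 0.0208), the pair on chromosome 9 differed by -0.76 (limma adjusted p = 0.117) and that on chromosome 6 by 0.30 (limma adjusted p = 0.513). Differences are given as the site of higher coordinate minus the site of lower coordinate.

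Both sites were active in 5 close pairs in HepG2. At chr16:85548718 (1.93 and 2.14) and chr16:85558606 (2.86 and 2.85) both were strong, and only the second, a Shared_Pol2 site, was active in K562 (0.62 ± 0.12 against -0.33 ± 0.05). At chr20:343211 (3.72 ± 0.14) and chr20:352563 (1.86 ± 0.16), both Shared_Pol2, the levels still differed by 1.86 (limma adjusted p = 0.000437). The HepG2_Pol2 sites chr18:13175972 (1.24 ± 0.20) and chr18:13179693 (0.87 ± 0.17) gave levels that did not pass the test of their difference (adjusted p = 0.147, limma). Of the pair chr14:62019762 and chr14:62028705, the second was at 0.68 ± 0.07, near the threshold.

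The fifth such pair, chr16:30786719 (HepG2_Pol2) and chr16:30787323 (Shared_Pol2), lay 604 bases apart and was active in both lines. The first site was higher in HepG2, with 1.30 and 1.30 against 0.59 and 0.76 in K562. The second was higher in K562, with 1.54 and 1.54 against 1.08 and 1.03 in HepG2. Both line differences passed (edgeR adjusted p = 0.00272 and 0.0144), and so did the difference between them (-1.11, limma adjusted p = 0.0305). By their means the sites thus changed order between the lines, although neither neighbour difference passed on its own (limma adjusted p = 0.175 in HepG2 and 0.0605 in K562). In HepG2 the barcode range of the second site (0.90 to 1.26) lay within that of the first (0.60 to 1.70). The ranges were apart in K562. A reversal of the order was not tested.

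In K562 both sites were active in 3 close pairs. Besides the pair on chromosome 16, chr1:32420381 had 0.66 ± 0.42 and chr1:32421675 0.98 ± 0.35, 1294 bases apart. In HepG2 the first of them was active at 1.61 ± 0.24 and the second was at -0.12 ± 0.18, a difference of -1.73 (limma adjusted p = 0.00191). The K562 call of chr1:32420381 was lost in 4 settings, among them without K562 transfection 2 (0.38, adjusted p = 0.173, edgeR). The third pair was chr3:5028602 and chr3:5036755. The 3 pairs that differed in K562 were chr14:62019762 and chr14:62028705 (-2.19), chr1:235011443 and chr1:235012237 (1.79), and chr16:87881964 and chr16:87887297 (1.29). In each the Shared_Pol2 site was high and the HepG2_Pol2 site near 0 or, on chromosome 16, at 0.34 ± 0.03.

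Pairs of a single class and pairs of mixed class differed in equal number in HepG2. Of the 65 close pairs, 33 were of a single class and 32 of mixed class. In each kind 12 differed (36.4% and 37.5%, limma adjusted p under 0.05). In K562 the counts were 0 and 3, with 5 and 10 at an unadjusted p under 0.05. Of the far pairs, 57.7% of 234 of a single class and 45.7% of 964 of mixed class differed in HepG2. In K562 these shares were 6.84% and 8.71%, with 59 of the 234 and 269 of the 964 at an unadjusted p under 0.05 (limma). The 25 close pairs of 2 HepG2_Pol2 sites differed in 8 cases in HepG2 (32.0%), against 67.3% of 113 far pairs of that class. Their median absolute difference was 0.29, against 0.69. In HepG2 neither site was active in 72.0% of these close pairs and in 43.4% of the far ones.

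Where a Shared and a HepG2-bound site were neighbours, the Shared site was usually the higher one in K562. It was higher in 11 of 15 close pairs in K562, by a median of 0.77, and in 9 of 15 in HepG2, by a median of 0.26. In K562 the Shared site alone was active in 8 pairs, the HepG2-bound site alone in none and both in 1. The far pairs of this kind gave 153 of 254 with the Shared site higher in K562, by a median of 0.11, and 138 in HepG2, by 0.07. Differences between close neighbours passed in favour of the Shared site in 6 pairs in HepG2 and 3 in K562, and in favour of the HepG2-bound site in 1 and 0 (limma). Of the far pairs, 69 passed for the Shared site and 52 for the HepG2-bound site in HepG2, and 25 and 7 in K562.

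Close neighbours with and without the polymerase had no common order. In 11 close pairs the Pol2 site was higher in 5 in HepG2 and in 4 in K562, with medians of -0.05 and -0.02 for Pol2 minus NOPol2. In HepG2, limma called 1 pair for the Pol2 site and 2 for the other, and in K562 it called none, with 1 pair at an unadjusted p under 0.05. At chr1:230844463 (Shared_Pol2, 1.67 ± 0.02) and chr1:230851419 (HepG2_NOPol2, -0.07 ± 0.18) the Pol2 site was higher. At chr6:159256770 (K562_Pol2, 0.22 ± 0.05) and chr6:159261618 (K562_NOPol2) the other was, through the single barcode described above. In 595 far pairs the Pol2 site was higher in 334 in HepG2 and 332 in K562. Of these far pairs, limma called 176 for the Pol2 site and 101 for the other in HepG2, and 42 and 9 in K562. At an unadjusted p under 0.05 (limma) there were 170 of the 595 in K562.

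The largest cluster held 5 HepG2_Pol2 sites on chromosome 18, from chr18:56066322 to chr18:56080309, and none was active in either line. In HepG2 they had -0.12 ± 0.01, -0.04 ± 0.10, -0.35 ± 0.24, -0.27 ± 0.18 and 0.18 ± 0.26 in order of position, and in K562 0.05 ± 0.21, -0.10 ± 0.03, -0.42 ± 0.32, -0.01 ± 0.64 and -0.01 ± 0.05. All 5 thus stayed between the 5th and 95th percentiles of scrambled sequences in both lines, which were -0.52 and 0.52 in K562.

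The cluster of 4 sites on chromosome 3 mixed HepG2_Pol2 and K562_Pol2 sites. Here chr3:5027188 (K562_Pol2) and chr3:5027800 (HepG2_Pol2), 612 bases apart, had -0.22 ± 0.26 and -0.21 ± 0.23 in HepG2. The next site, chr3:5028602 (HepG2_Pol2), had 0.39 ± 0.02 in HepG2 and 0.69 ± 0.13 in K562, and was active in K562 alone. The last, chr3:5036755 (K562_Pol2), was active in both, with 3.44 ± 0.01 in HepG2 and 1.47 ± 0.03 in K562. The active site bound in K562 by its class was thus stronger in HepG2, and the active site bound in HepG2 passed in K562. The scrambled version of chr3:5028602 was active in HepG2 at 1.03, above the site itself.

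The closest tested neighbours were mostly inactive. The 4 closest pairs, at 259 to 354 bases, were chr9:118706776 and chr9:118707035, chr16:81582953 and chr16:81583237, chr12:68758740 and chr12:68759031, and chr2:46636116 and chr2:46636470. None of their sites was active in either line, and no difference passed in limma. The same held for chr7:92325003 and chr7:92325362 at 359 bases and for chr18:56074747 and chr18:56075205 at 458 bases. Between them, at 378 bases, chr10:82258657 (Shared_Pol2, 0.75 and 0.76) was active in HepG2 and chr10:82259035 (HepG2_Pol2, -0.21 and -0.10) was not, a difference of -0.91 (limma adjusted p = 0.00338) with barcode ranges apart. At 597 bases chr14:34801513 (1.11 ± 0.01) and chr14:34802110 (0.39 ± 0.02) differed by -0.71 in HepG2 (limma adjusted p = 0.00735).

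Set against its own scrambled version, a clustered site was higher in 52 of 96 cases in HepG2 and in 53 of 96 in K562 (54.2% and 55.2%). Unclustered sites were higher in 64.6% and 59.3% of 805 cases. The clustered site was active and its scrambled version was not in 24 of the 96 cases in HepG2 and 14 in K562. The reverse held in 6 and 1. For the 805 unclustered sites these counts were 154 and 100, with the reverse in 26 and 15. Of 104 tested scrambled versions of clustered sites, 6 were active in HepG2 (5.77%) and 2 in K562 (1.92%). Among all 1046 tested scrambled sequences 4.59% and 2.49% were active.

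The distance that set the rule fell between 2 pairs on chromosome 16. Just inside, at 9888 bases, were chr16:85548718 and chr16:85558606, with the values given above. Just outside, at 10178 bases, were chr16:22298502 (K562_NOPol2, -0.05 ± 0.23 in HepG2 and -0.36 ± 0.20 in K562) and chr16:22308680 (HepG2_NOPol2, 4.12 ± 0.24 and 3.61 ± 0.10).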

How the data were processed

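CRE-seq barcodes were counted in DNA and RNA of 2 transfections each of HepG2 and K562. Per the file headers, the deposited values are raw counts of reads for every barcode in each library. The submitters' processing notes name cutadapt and hg19, with no role or version. The aligner, the counter and any filters were not given in the sources used here. Site positions are those of the table. The annotation at hand is of another build, so sites were not assigned to genes.

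A barcode needed 10 reads or more in all DNA libraries, and an element 3 or more passing barcodes, which left 2332 elements. Reads were summed per element and scaled by TMM over scrambled sequences. RNA was tested against DNA, and the lines against each other, with edgeR 4.0.16 (quasi-likelihood, R 4.3.3) on all 8 libraries in 4 groups, adjusted over all tested elements by the Benjamini-Hochberg method. Neighbour differences of log2 RNA/DNA (pseudocount 1) were fitted with limma 3.58.1 over all 1263 adjacent pairs, with a weight per line (1.52 for HepG2, 0.66 for K562), and adjusted over all pairs within a line. The scripts were tested on simulated data. Depth was 9965393 to 10193122 reads per library, and intervals cover counting error only.

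Replicate numbers paired the samples. Deviations of same-numbered libraries from their group means correlated between 0.17 and 0.58 over the pairs of groups, and the labels say that each replicate experiment shared a lane. The block is an alternative, as are other read and barcode minimums, TMM over all elements, medians over barcodes, DESeq2 1.42.0, other cluster distances and leaving out each transfection.

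The named sites are, per line, the 10 most active and up to 5 most repressed, the 5 largest line differences in each direction, the 10 largest neighbour differences, up to 10 pairs with both sites active, the 10 closest pairs, clusters of 4 or more sites, and the pairs at the distance limit. The sites chr22:37429000, chr9:90408377 and chr20:56119942 were named after their values were seen. The members and lists were chosen with earlier results of these data known.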

Additional observations from a re-analysis of the deposited data

Results flagged for a closer look

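The following clustered sites and pairs stood out because the difference between the cell lines itself passed the test, edgeR's interaction contrast for sites and limma's difference between lines for pairs, at an adjusted p under 0.05. In all 40 sites (30.1%) passed, where the test called 16.7% of all tested elements and 24.4% of bound sites. Of the close pairs 16 passed (24.6%), where 20.6% of all pairs were called. The sites listed here come from the lists of the most active, most repressed and most line-dependent sites. The pairs come from the lists of the largest neighbour differences and of pairs with both sites active. Values are log2 RNA/DNA in HepG2 minus K562 from edgeR for sites.

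Higher in HepG2 were chr6:159261618 (2.88), chr20:49016820 (2.87), chr6:1231373 (2.81), chr7:156408363 (2.72), chr20:343211 (2.60), chr16:87887297 (2.32), chr16:85558606 (2.23) and chr3:5036755 (1.98). The HepG2 values of chr6:159261618 and chr7:156408363 rested on a single barcode, and their line differences did not pass without the highest barcodes, as given above. Smaller differences toward HepG2 were found for chr10:74080695 (1.33), chr6:167722251 (0.89) and chr1:230844463 (0.46). The site chr6:167722251 was repressed in K562 and not active in HepG2.

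Higher in K562 were chr1:235012237 (-1.99), chr6:3410120 (-1.80), chr1:32421675 (-1.12), chr20:30294640 (-1.07), chr2:8819195 (-0.69) and chr16:30787323 (-0.48). The sites chr13:114445111 (-0.61) and chr14:35816941 (-0.53) were repressed in HepG2 and near 0 in K562.

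For pairs, the value is the neighbour difference in HepG2 minus that in K562, with each difference taken as the site of higher coordinate minus the other. It was 3.08 for chr6:1228826 and chr6:1231373, 2.95 for chr7:156407411 and chr7:156408363, 2.80 for chr20:49015542 and chr20:49016820, and 2.73 for chr6:159256770 and chr6:159261618. It was 2.44 for chr16:87881964 and chr16:87887297, 2.27 for chr3:5028602 and chr3:5036755, and 1.23 for chr10:74079460 and chr10:74080695. Negative values were found for chr1:32420381 and chr1:32421675 (-2.06), chr1:235011443 and chr1:235012237 (-1.80), chr1:230844463 and chr1:230851419 (-1.36), and chr9:131058634 and chr9:131067083 (-1.35). The same held for chr16:30786719 and chr16:30787323 (-1.11) and chr20:343211 and chr20:352563 (-1.10). The pairs on chromosome 7 and chromosome 9 and the second pair on chromosome 6 had overlapping barcode ranges in HepG2. So did chr1:235011443 and chr1:235012237, and chr16:30786719 and chr16:30787323.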

How the results depend on the processing

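A change of the cluster distance also changes which sites and pairs are counted, so its counts come from sets of another size. Counts of active sites and of line differences are given without the share over all tested elements in each setting. Alone, they do not show whether clustered sites changed more than others. The count of active clustered sites in HepG2 (31) became 18 with the 99th percentile of scrambled sequences, 18 at a cluster distance of 5000 bases and 48 at 20000 bases. In K562 (19) it became 11, 12 and, with medians over barcodes, 9. Sites differing between lines (40) fell to 23 without the highest barcode, 16 with medians and 23 at 5000 bases. Leaving out each transfection gave 28 to 31, 16 to 18 and 26 to 38. Close pairs numbered 47 at 5000 bases and 87 at 20000 bases, against 65. Close pairs differing in HepG2 (24) were 14 at 5000 bases (29.8%) and 15 to 28 with a transfection left out. Those in K562 (3) were 0 with no minimum count, with the replicate block and with a fit per line, which had 19, 15 and 16 at an unadjusted p under 0.05 in limma. In these 3 settings 0% of all pairs were called too, and the unadjusted counts are of close pairs only. They were 11 with at least 50 reads (20% of close and 17.6% of all pairs), 12 with 4 barcodes (24.5% and 21.4%), 1 without the highest barcode, 1 with medians, 1 at 5000 bases, 5 at 20000 bases and 0 to 3 with a transfection left out. The order of close and all pairs turned in the settings of 50 reads and 4 barcodes, against 4.62% and 8.16%. In HepG2 it turned with no minimum count (32.1% and 26.2%) and without HepG2 transfection 2 (29.2% and 25.3%), against 36.9% and 47.5%. With the replicate number as a replicate block 23 pairs differed in HepG2. The activity fit was blocked by transfection within a line, which pairs DNA with RNA, and its counts of active sites (31 and 19) and of line differences (40) were as without this replicate block.

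The share of active sites, clustered minus other, was 1.80 points in HepG2 and 1.71 in K562. It turned negative in HepG2 at 5000 bases (-2.97), with medians (-0.37) and without the highest barcode (-0.37), and in K562 with 4 barcodes (-0.27) and at 5000 bases (-0.13). Within HepG2_Pol2 the gap of -15.7 points in HepG2 lay between -19.2 and -9.04 over all 17 settings, chosen for this gap after seeing the data. Named sites and pairs were recomputed 710 times for 59 results, and their call was lost 79 times. In 35 results it held in every setting run. The cause was not tested in any of these cases. Depth was nearly equal between libraries, and low DNA counts of single barcodes limit single sites.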
